A study of Mus musculus with 8 samples.

Results

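Canonical histone genes were described by histone class across 4 kinds of mouse pluripotent cells. Members were the genes whose symbol is that of an H1, H2A, H2B, H3 or H4 gene of the replication-type families (H1f, H2ac, H2bc, H3c and H4c with a number, or the older Hist names) and that had a probe set listed with this gene alone. This gave 29 genes on 30 probe sets, of 22180 genes and 41345 probe sets in all, and the brightest probe set stood for a gene. By class there were 8 H1, 6 H2A, 8 H2B and 7 H4 genes, and 0 H3 genes. RefSeq lists 68 genes of these families, of which 37 were covered only by probe sets listed with several genes, and 2, H1f0 and H2ac14, are not analysed here.

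RNA was measured on Affymetrix Mouse Gene 2.1 arrays, 8 in all and 2 for each group, and all groups are wild type C57BL/6J. FGF-ESC are lines derived from preimplantation embryos and kept in FGF2 with 20% knockout serum replacement (KSR) in KODMEM on mouse embryonic fibroblasts (MEF). EpiSC, cells of the primed epiblast kind, were grown in the same medium and also on MEF. ESC were kept off MEF in DMEM with LIF and the kinase inhibitors known as 2i, and 1 of the label fields adds 15% FCS. ICM is the inner cell mass of day 3.5 blastocysts, isolated by immunosurgery and not cultured. The labels give day 3.5 embryos as the source of every line, EpiSC included. RNA of ICM was purified with another column kit than that of the cultured cells, and all RNA was amplified with a NuGEN whole-transcriptome kit and labelled with biotin. ESC thus differed from FGF-ESC and EpiSC in medium and feeders as well as cell type, and ICM from all of them in RNA kit and culture, and these cannot be told apart.

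The labels can be set against defining markers. The naive factor Klf4 was at log2 levels of 8.44 and 8.59 in FGF-ESC, 4.55 and 4.82 in EpiSC, 8.61 and 8.56 in ESC and 7.23 and 7.11 in ICM. Of 15 pluripotency markers 0 rose and 3 fell in FGF-ESC relative to ESC, beside 5.27% and 0.934% of all tested genes. Those that fell were the naive genes Tfcp2l1, Tbx3 and Zfp42. Tfcp2l1 was at 7.01 and 7.26 in FGF-ESC, 4.82 and 5.19 in EpiSC, 8.99 and 8.78 in ESC and 8.43 and 8.40 in ICM. Fgf5, which marks the post-implantation epiblast, was at 5.72 and 6.07 in EpiSC and between 2.87 and 3.43 on the other 6 arrays. The mean level of 25 fibroblast marker genes stood apart in FGF-ESC, at 8.43 and 7.30. It was 5.15 and 5.39 in EpiSC, 4.69 and 4.68 in ESC and 4.64 and 4.80 in ICM. Within a group, 395 tested genes lay 1 log2 unit or more apart on the FGF-ESC arrays, 20 in EpiSC, 0 in ESC and 80 in ICM. Among the histone genes this held for H2bc3 in FGF-ESC and for H2bc1 in ICM.

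Histones package DNA into nucleosomes, in which DNA is wound around a core of H2A, H2B, H3 and H4, while the linker histone H1 sits where DNA enters and leaves. Most of these genes lie in clusters and are transcribed in S phase, when new DNA has to be packaged. Their mRNAs end in a stem loop bound by SLBP rather than in a poly(A) tail, and they are degraded when replication stops. H2A and H2B genes often form pairs read in opposite directions from a shared promoter. Pluripotent cells divide fast and spend much of the cycle in S phase. Some members are not of the S phase kind: H1f10 is a replacement linker histone, H1f8 that of the oocyte, H1f6 and H1f7 are linker histones of the testis, and H2ac1 and H2bc1 encode the germ cell forms known as TH2A and TH2B. Histone genes have near-identical copies, so a probe set listed with 1 gene may still read mRNA of another, and each assignment is uncertain in that sense. In RefSeq's GRCm38.p6, 21 members lie on chromosome 13, 5 on chromosome 3, 2 on chromosome 6 and 1 on chromosome 15.

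The promoters of 6 genes with differences between groups are shown, since the mark of a histone gene is its short, motif-rich promoter. Each line gives the 250 bases before the start of the gene, 5′ to 3′ on its own strand, as in RefSeq's GRCm38.p6. Capitals mark every match on either strand to 4 motifs, which may overlap. The first is the CCAAT box, which reads ATTGG on the other strand. The next is TATAAA, the TATA box, which reads TTTATA on the other strand. Then come the octamer ATTTGCAT, known from H2B promoters, and AAACACA, known as the H1 box. On the other strand the octamer reads ATGCAAAT and the H1 box reads TGTGTTT. The genes are H1f5 (chr13:21780626-21780875, minus strand), H1f2 (chr13:23738557-23738806, plus strand), H2ac21 (chr3:96219635-96219884, plus strand), H2ac1 (chr13:23934187-23934436, plus strand), H2bc12 (chr13:22035571-22035820, plus strand) and H4c9 (chr13:22041363-22041612, minus strand).
H1f5: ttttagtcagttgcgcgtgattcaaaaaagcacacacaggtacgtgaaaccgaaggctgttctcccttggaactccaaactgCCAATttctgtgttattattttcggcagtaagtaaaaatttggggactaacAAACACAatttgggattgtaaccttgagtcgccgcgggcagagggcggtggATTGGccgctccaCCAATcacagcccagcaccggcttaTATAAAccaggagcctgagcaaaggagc
H1f2: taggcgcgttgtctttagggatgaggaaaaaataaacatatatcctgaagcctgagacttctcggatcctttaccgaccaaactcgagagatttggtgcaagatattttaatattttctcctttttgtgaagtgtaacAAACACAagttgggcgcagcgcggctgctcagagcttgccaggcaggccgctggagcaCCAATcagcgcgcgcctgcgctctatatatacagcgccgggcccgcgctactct
H2ac21: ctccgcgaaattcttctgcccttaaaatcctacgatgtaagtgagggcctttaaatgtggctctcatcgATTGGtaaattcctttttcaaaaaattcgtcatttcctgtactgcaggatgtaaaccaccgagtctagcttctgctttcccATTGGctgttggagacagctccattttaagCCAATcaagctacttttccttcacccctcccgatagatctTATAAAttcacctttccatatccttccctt
H2ac1: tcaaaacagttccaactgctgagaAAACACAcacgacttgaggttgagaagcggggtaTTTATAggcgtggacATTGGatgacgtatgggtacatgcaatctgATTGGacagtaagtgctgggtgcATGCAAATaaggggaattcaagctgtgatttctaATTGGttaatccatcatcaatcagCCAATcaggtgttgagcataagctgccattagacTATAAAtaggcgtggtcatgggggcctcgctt
H2bc12: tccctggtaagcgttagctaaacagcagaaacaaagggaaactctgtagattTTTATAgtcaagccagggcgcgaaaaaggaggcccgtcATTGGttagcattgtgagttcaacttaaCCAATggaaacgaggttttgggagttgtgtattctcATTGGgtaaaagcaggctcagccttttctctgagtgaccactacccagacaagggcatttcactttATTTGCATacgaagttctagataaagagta
H4c9: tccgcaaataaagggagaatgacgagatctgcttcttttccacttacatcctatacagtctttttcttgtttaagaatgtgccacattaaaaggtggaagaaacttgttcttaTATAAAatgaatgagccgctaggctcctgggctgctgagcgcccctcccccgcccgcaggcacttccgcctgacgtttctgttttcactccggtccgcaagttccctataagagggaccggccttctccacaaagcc

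Promoters were found for 27 of the 29 members, all but H2bc21 and H4c14. CCAAT was present in 20 of the 27, or 74.1%, against 33.8% of 32851 RefSeq promoters of the same length. By class it was present in 6 of 8 H1, 6 of 6 H2A, 7 of 7 H2B and 1 of 6 H4 promoters. TATAAA was present in 48.1% of members and 12.4% of all promoters. The octamer was in 8 members, 5 of 7 H2B and 3 of 6 H2A genes and 0 H1 or H4 genes, so in 29.6% of members and 1.6% of all promoters. The windows of H2ac1 and H2bc1 overlap, as do those of H2ac12 and H2bc12. In each pair the octamer is the same site read from either strand, and it counts for both genes. The H1 box was in 4 of 8 H1 promoters, and in 25.9% of members and 6.25% of all promoters. Of the genes printed above, H1f5 and H1f2 have the H1 box and CCAAT, H2bc12 and H2ac1 have the octamer and CCAAT, and H4c9 only TATAAA. The H1 box is not limited to H1 genes: it is also in H2ac1, and in all in 1 H2A and 2 H2B promoters, but H2ac1 and H2bc1 share the same site. A match describes letters and is not a bound site.

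Of the 29 members, 15 exceeded 4.24, the overall median of the log2 values, on 2 or more arrays and were tested: 4 H1, 5 H2A, 4 H2B and 2 H4 genes. The other 14 lay between 1.96 and 4.48 on every array. A gene passed when limma, fitted to all 8 arrays with p-values adjusted by the Benjamini-Hochberg method over 13597 genes, gave an adjusted p below 0.05 with a change of 1 log2 unit or more. The labels do not state separate cultures or embryo pools for the arrays of a group, so the p-values reflect the spread of these arrays alone, and that spread may be technical. In bulk RNA, fewer cells of a type and less RNA per cell cannot be told apart.

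H1f5 and H2ac21 fell in FGF-ESC relative to both ESC and EpiSC, H2ac20 fell relative to EpiSC, and H2ac1 rose relative to EpiSC. In FGF-ESC minus ESC, 2 of 15 tested members were lower, H1f5 and H2ac21, beside 0.934% of all tested genes, and 0 were higher, beside 5.27%. In FGF-ESC minus EpiSC, 3 were lower, H1f5, H2ac21 and H2ac20, beside 2.02%, and 1 was higher, H2ac1, beside 5.26%. In FGF-ESC minus ICM, 2 were lower, H2bc12 and H4c9, beside 5.22%, and 0 were higher, beside 9.57%. In ESC minus ICM, 3 were higher, H1f5, H1f2 and H2ac21, beside 5.82%, and 2 lower, H2ac1 and H4c9, beside 5.57%. For EpiSC minus ICM the higher genes were H1f5, H1f1 and H2ac20, 3 beside 8.48%, and the lower ones H2ac1 and H2bc12, 2 beside 6.8%. In EpiSC minus ESC limma passed 0 members in either direction, beside 3.86% higher and 3.5% lower over all genes, with 1 member higher and 3 lower at an unadjusted p below 0.05, beside 16.1% and 14.8% at that cut. Where a member passed, the arrays of the compared groups did not overlap, which the threshold makes likely with 2 arrays per group and which adds no support. The same held for members that did not pass, such as H1f10 and H2ac10 in FGF-ESC minus ESC. At an unadjusted p below 0.05, limma had 2 members higher and 9 lower in FGF-ESC minus ESC, beside 15.5% and 15.6% of all tested genes. In FGF-ESC minus EpiSC it had 1 higher and 9 lower, beside 16.2% and 16.6%, and in FGF-ESC minus ICM 1 higher and 5 lower, beside 23.9% and 21.8%. Without FGF-ESC replicate 1, the array with the most fibroblast signal, the log2 fold change of H1f5 was -1.27 against ESC and -1.33 against EpiSC. That of H2ac21 was -1.52 and -1.16. Against EpiSC, H2ac20 had -1.21 and H2ac1 1.27, and against ICM, H2bc12 had -0.85 and H4c9 -1.06. The FGF-ESC array kept, replicate 2, still had a fibroblast marker mean of 7.30, so leaving out replicate 1 does not remove that signal.

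Without the fold minimum, at an adjusted p below 0.05 alone, 0 members were higher and 6 lower in FGF-ESC minus ESC, beside 9.24% and 6.11% of all tested genes. In FGF-ESC minus EpiSC 1 was higher and 7 lower, beside 10.7% and 9.13%. In FGF-ESC minus ICM it was 1 and 4, beside 19.7% and 17%, and in EpiSC minus ESC 1 and 1, beside 9.86% and 9.15%. In ESC minus ICM it was 7 and 3, beside 17.8% and 15.2%, and in EpiSC minus ICM 8 and 4, beside 20.4% and 18%.

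**Figure D1:**
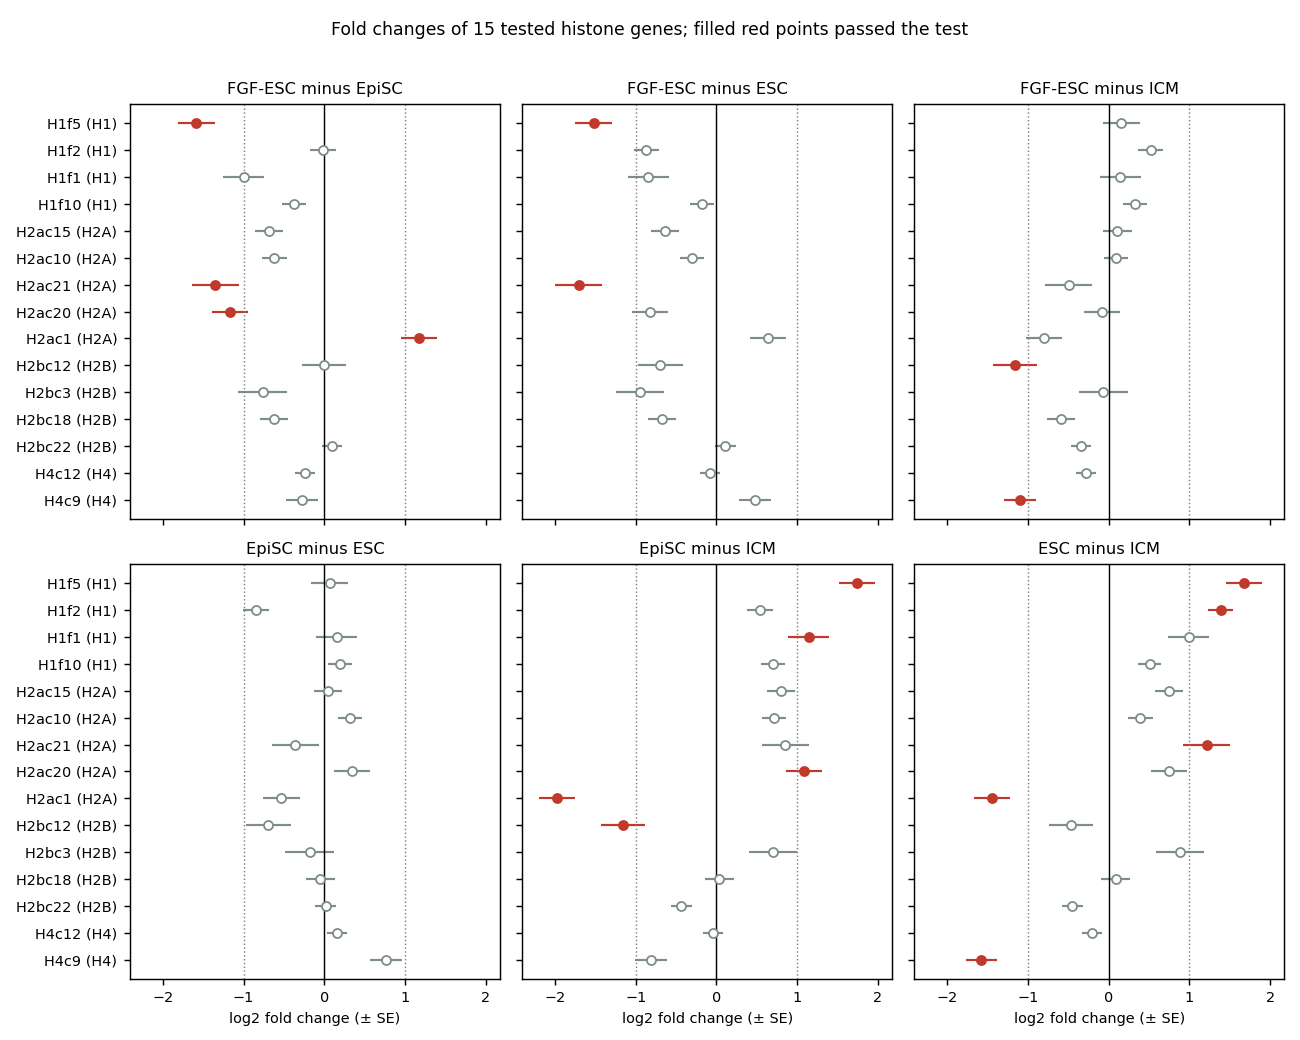
Log2 fold changes of the histone genes that were tested, by comparison, from limma's fit to all 8 arrays. Bars are the SE, dotted lines mark the fold minimum, and filled points passed. H1f5 and H2ac21 are the members past the threshold and below 0 in FGF-ESC minus ESC, at -1.52 and -1.71.

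Across all 29 members, 14 of them dim and untested, the median log2 fold change was -0.18 in FGF-ESC minus ESC and -0.24 in FGF-ESC minus EpiSC, against -0.05 and -0.04 over all 22180 genes. It was -0.09 in FGF-ESC minus ICM, against -0.06 over all genes. For EpiSC minus ESC it was 0.05 against -0.01, for ESC minus ICM 0.09 against -0.01, and for EpiSC minus ICM 0.04 against -0.02. Over the 15 tested members, a choice by level, the medians were -0.68 in FGF-ESC minus ESC, -0.62 in FGF-ESC minus EpiSC and -0.09 in FGF-ESC minus ICM, against -0.06, -0.04 and -0.02 over all tested genes. They were 0.05 in EpiSC minus ESC, 0.51 in ESC minus ICM and 0.70 in EpiSC minus ICM, against -0.005, 0.02 and 0.01. The comparisons share groups and so are not separate evidence.

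H1f5 (Hist1h1b, probe set 17291005), a somatic linker histone, was at log2 levels of 8.28 and 8.78 in FGF-ESC, 10.20 and 10.03 in EpiSC, 10.24 and 9.86 in ESC and 8.13 and 8.61 in ICM. The arrays of FGF-ESC and ICM lay together, and all of them below the arrays of EpiSC and ESC, with no overlap. Its log2 fold change was -1.52 ± 0.23 (SE, adjusted p = 0.00454) in FGF-ESC minus ESC, or 0.349 times the ESC intensity. In FGF-ESC minus EpiSC it was -1.58 ± 0.23 (adjusted p = 0.0023). The change was 0.16 ± 0.23 (adjusted p = 0.625) in FGF-ESC minus ICM and 0.06 ± 0.23 (adjusted p = 0.894) in EpiSC minus ESC, so the groups within each of these pairs did not separate in this test. H1f5 was higher in ESC than in ICM by 1.68 ± 0.23 (adjusted p = 0.000829), and in EpiSC than in ICM by 1.74 ± 0.23 (adjusted p = 0.000494). Against ESC it did not pass without ESC replicate 1, where the fold change was -1.33 and the adjusted p 0.0601.

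H1f2 separated ESC and ICM, while H1f1 had the group order of H1f5. H1f2 (Hist1h1c, probe set 17285859), a somatic linker histone, was at 6.82 and 6.83 in FGF-ESC, 6.92 and 6.77 in EpiSC, 7.78 and 7.60 in ESC and 6.51 and 6.10 in ICM. Its ESC arrays lay above all others and its ICM arrays below all others. The fold change passed in ESC minus ICM at 1.39 ± 0.16 (adjusted p = 0.000378), while FGF-ESC minus ESC at -0.87 ± 0.16 (adjusted p = 0.0106) and EpiSC minus ESC at -0.85 ± 0.16 (adjusted p = 0.00713) were under the fold minimum. H1f1 (Hist1h1a, probe set 17285879), also a somatic linker histone, was at 6.18 and 6.58 in FGF-ESC, 7.45 and 7.31 in EpiSC, 7.45 and 7.002 in ESC and 6.59 and 5.88 in ICM. Its FGF-ESC and ICM arrays lay below its EpiSC and ESC arrays. It rose in EpiSC relative to ICM by 1.14 ± 0.25 (adjusted p = 0.00796), a call lost without EpiSC replicate 1 (adjusted p = 0.0568) or ICM replicate 2 (log2 fold change 0.79), and it had -0.996 ± 0.254 (adjusted p = 0.0276) in FGF-ESC minus EpiSC.

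The other linker members moved little or were dim. H1f10 (H1fx, probe set 17468702), the replacement form, was at 5.50 and 5.75 in FGF-ESC, 6.08 and 5.92 in EpiSC, 5.80 and 5.82 in ESC and 5.16 and 5.44 in ICM. It passed in 0 of the 6 comparisons, with its widest log2 fold change, 0.70 ± 0.15 (adjusted p = 0.00611), in EpiSC minus ICM. H1f3, H1f6, H1f7 and H1f8 were not tested and lay between 2.97 and 4.28 on every array.

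**Figure D2:**
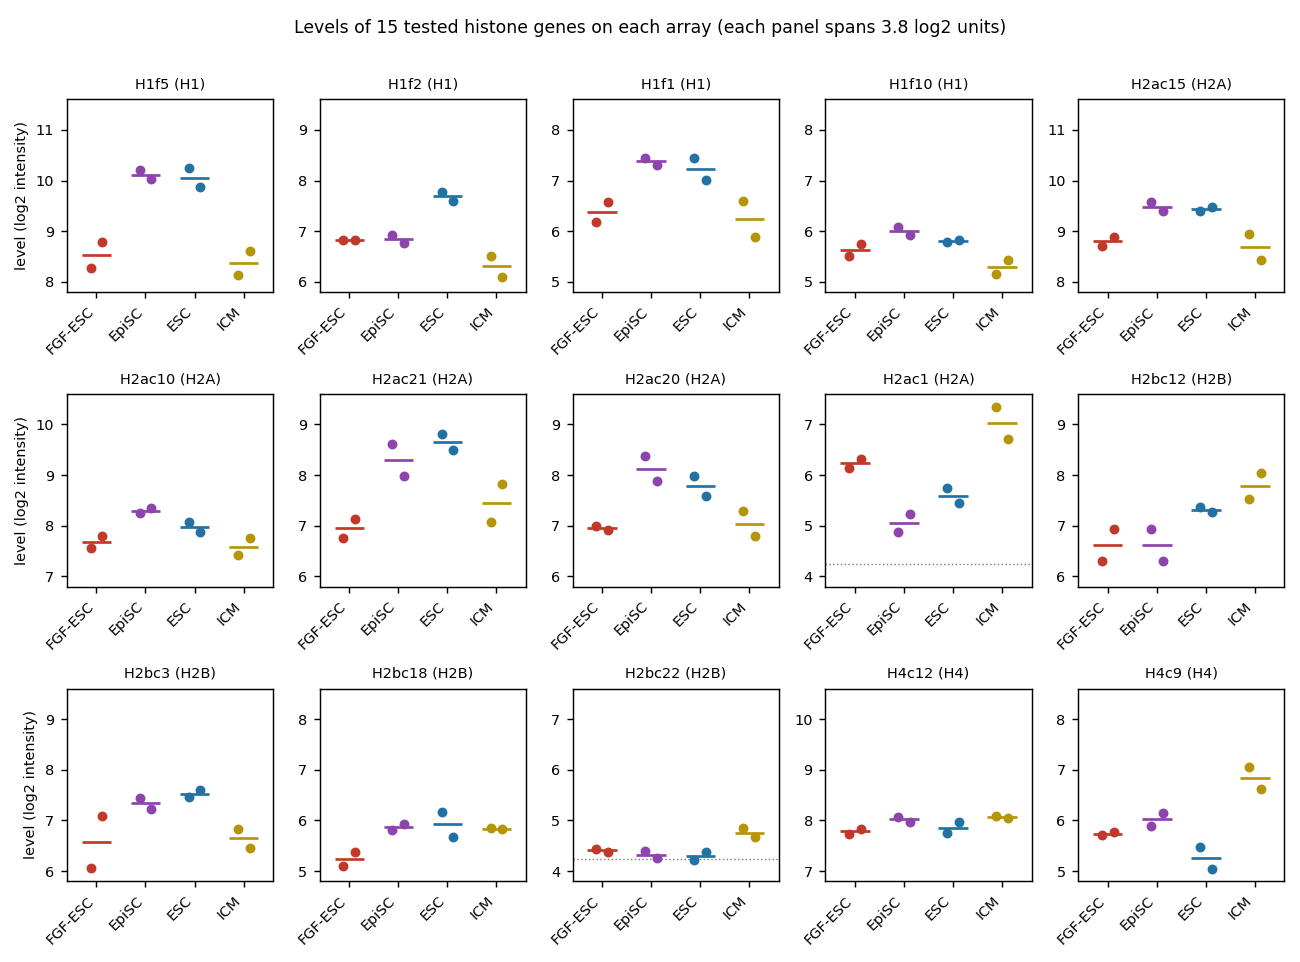
Log2 levels of the histone genes on each of the 8 arrays, by group in the order FGF-ESC, EpiSC, ESC and ICM. Points are arrays, short lines their means, and the dotted line is the overall median, 4.24. For H1f5 the FGF-ESC and ICM points lie between 8.13 and 8.78 and the EpiSC and ESC points between 9.86 and 10.24.

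Among the H2A genes, which encode core histones, H2ac21 and H2ac20 were the ones that fell. H2ac21 (probe set 17400539) was at 6.76 and 7.14 in FGF-ESC, 8.61 and 7.99 in EpiSC, 8.81 and 8.50 in ESC and 7.07 and 7.82 in ICM. FGF-ESC arrays lay below all EpiSC and ESC arrays, and ICM replicate 2 came closest to EpiSC replicate 2. The log2 fold change was -1.71 ± 0.29 (adjusted p = 0.00768) in FGF-ESC minus ESC, lost without ESC replicate 1 (adjusted p = 0.0852). It was -1.35 ± 0.29 (adjusted p = 0.0138) in FGF-ESC minus EpiSC, lost without FGF-ESC replicate 1 (0.0508), without EpiSC replicate 1 (0.11), and when the mean of its probe sets was used (log2 fold change -0.97). In ESC minus ICM it was 1.21 ± 0.29 (adjusted p = 0.0131), lost without ESC replicate 1 (0.101) or ICM replicate 1 (0.0806) and with the mean of probe sets (0.86). H2ac21 was the one member with several probe sets listed with it alone. The other, 17408008, was at 3.99 and 4.32 in FGF-ESC, 4.82 and 4.69 in EpiSC, 4.74 and 4.70 in ESC and 4.05 and 4.36 in ICM. On both probe sets the FGF-ESC and ICM arrays lay below the EpiSC and ESC arrays, but the dimmer one lay near the overall median, and there ESC was not the highest group.

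H2ac20 (Hist2h2ac, probe set 17408011), another core H2A gene, was at 6.99 and 6.92 in FGF-ESC, 8.37 and 7.88 in EpiSC, 7.97 and 7.59 in ESC and 7.28 and 6.80 in ICM. All FGF-ESC and ICM arrays lay below all EpiSC and ESC arrays. It fell in FGF-ESC relative to EpiSC by 1.17 ± 0.22 (adjusted p = 0.00846), which was lost without EpiSC replicate 1 (0.0728). It rose in EpiSC relative to ICM by 1.08 ± 0.22 (adjusted p = 0.00545), which was under the fold minimum without EpiSC replicate 1 (0.84) or ICM replicate 2 (0.84). In FGF-ESC minus ESC its log2 fold change was -0.83 ± 0.22 (adjusted p = 0.0415), under the fold minimum.

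H2ac15 (Hist1h2ak, probe set 17291001) and H2ac10 (probe set 17285819), core H2A genes, passed in 0 of 6 comparisons. H2ac15 was at 8.70 and 8.90 in FGF-ESC, 9.57 and 9.40 in EpiSC, 9.40 and 9.48 in ESC and 8.94 and 8.44 in ICM. H2ac10 was at 7.57 and 7.79 in FGF-ESC, 8.26 and 8.34 in EpiSC, 8.08 and 7.89 in ESC and 7.43 and 7.75 in ICM. For both, all FGF-ESC and ICM arrays were below all EpiSC and ESC arrays. In FGF-ESC minus EpiSC, H2ac15 differed by a log2 fold change of -0.69 ± 0.18 (adjusted p = 0.0281) and H2ac10 by -0.62 ± 0.15 (adjusted p = 0.0242).

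H2ac1 (Hist1h2aa, probe set 17285938), the germ cell H2A known as TH2A, ran the other way. It was at 6.13 and 6.33 in FGF-ESC, 4.88 and 5.23 in EpiSC, 5.74 and 5.44 in ESC and 7.34 and 6.72 in ICM. ICM was highest, FGF-ESC next, then ESC and then EpiSC, with no overlap between any of the groups. It rose in FGF-ESC relative to EpiSC by 1.17 ± 0.22 (adjusted p = 0.00867), which was lost without EpiSC replicate 1 (0.0795). It was lower in ESC than in ICM by a log2 fold change of -1.44 ± 0.22 (adjusted p = 0.00176) and in EpiSC than in ICM by -1.97 ± 0.22 (adjusted p = 0.000238). FGF-ESC minus ESC, at 0.64 ± 0.22 (adjusted p = 0.094), did not pass, nor did FGF-ESC minus ICM, at -0.80 ± 0.22 (adjusted p = 0.0238), which passed without ICM replicate 2. Neighbours in this order that did not pass the test were FGF-ESC and ESC, ESC and EpiSC (EpiSC minus ESC -0.53, adjusted p = 0.149), and ICM and FGF-ESC.

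Among the H2B genes, also core histones, H2bc12 was highest in ICM on its own probe set. On 17285691, a brighter probe set listed with 12 genes, H2bc12 among them, ICM had the lowest mean. There the log2 fold change in EpiSC minus ICM was 0.73 ± 0.13 (adjusted p = 0.00628), with every probe set fitted on its own. H2bc12 (Hist1h2bk, probe set 17285742) was at 6.31 and 6.93 in FGF-ESC, 6.94 and 6.31 in EpiSC, 7.36 and 7.28 in ESC and 7.52 and 8.05 in ICM. All ICM arrays were above all cultured ones, and FGF-ESC and EpiSC arrays overlapped. Its log2 fold change was -1.16 ± 0.28 (adjusted p = 0.012) in FGF-ESC minus ICM, lost without FGF-ESC replicate 1 (0.0515) or ICM replicate 2 (0.0819). In EpiSC minus ICM it was -1.16 ± 0.28 (adjusted p = 0.0112), lost without EpiSC replicate 2 (0.0868) or ICM replicate 2 (0.0795).

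H2bc3 (probe set 17285863) was at 6.06 and 7.10 in FGF-ESC, 7.45 and 7.23 in EpiSC, 7.45 and 7.60 in ESC and 6.84 and 6.45 in ICM. The FGF-ESC arrays lay more than 1 apart, and H2bc3 passed in 0 comparisons. FGF-ESC minus ESC was -0.95 ± 0.30 (adjusted p = 0.0691). H2bc18 (probe set 17400562) was at 5.11 and 5.38 in FGF-ESC, 5.80 and 5.93 in EpiSC, 6.16 and 5.68 in ESC and 5.84 and 5.82 in ICM, with both FGF-ESC arrays below the other 6. Its log2 fold change was -0.68 ± 0.18 (adjusted p = 0.0373) in FGF-ESC minus ESC. H2bc22 was at 4.44 and 4.38 in FGF-ESC, 4.39 and 4.25 in EpiSC, 4.22 and 4.38 in ESC and 4.84 and 4.66 in ICM.

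Of the H4 genes, H4c9 (Hist1h4i, probe set 17291053) was at 5.71 and 5.77 in FGF-ESC, 5.89 and 6.15 in EpiSC, 5.48 and 5.04 in ESC and 7.05 and 6.62 in ICM. ICM was above all cultured arrays, and ESC was lowest. Its log2 fold change was -1.09 ± 0.20 (adjusted p = 0.00317) in FGF-ESC minus ICM, and without ICM replicate 1 it was -0.88, under the fold minimum. In ESC minus ICM it was -1.57 ± 0.20 (adjusted p = 0.000582). Probe set 17285706, listed with 6 H4 genes, H4c9 among them, ran the other way. It was at 6.03 and 6.02 in FGF-ESC, 6.79 and 6.44 in EpiSC, 6.59 and 6.45 in ESC and 5.83 and 5.88 in ICM. Its log2 fold change in ESC minus ICM was 0.66 ± 0.15 (adjusted p = 0.0163), with every probe set fitted on its own. H4c12 (probe set 17290999) differed little: it was at 7.74 and 7.82 in FGF-ESC, 8.07 and 7.97 in EpiSC, 7.74 and 7.97 in ESC and 8.08 and 8.05 in ICM. H4c8 (Hist1h4h, probe set 17285815), not tested since it exceeded the overall median on 1 array only, was at 4.48 and 3.603 in FGF-ESC, 3.09 and 2.74 in EpiSC and 2.51 and 2.30 in ESC, with ICM replicate 2 at 3.17. In FGF-ESC minus ESC limma passed 0 H2B and 0 H4 members, while 3 H2B members were lower and 1 H4 member higher at an unadjusted p below 0.05, a cut met by 15.6% of all tested genes as lower and 15.5% as higher.

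The order of the groups was itself shared by several members, a pattern chosen after the values were seen. All FGF-ESC and ICM arrays lay below all EpiSC and ESC arrays for 8 of the 15 tested members, namely H1f5, H1f1, H1f10, H2ac15, H2ac10, H2ac21, H2ac20 and H2bc3, beside 7.56% of all tested genes. With H1f3, which was not tested, this order held for 9 of the 29. The opposite order was met by H2ac1, 1 of 15, beside 4.92%. ICM arrays lay above all cultured arrays for H2ac1, H2bc12, H2bc22 and H4c9, 4 of 15, beside 19.2%, and for the untested H4c17. They lay below all cultured arrays for H1f2 and H1f10, 2 of 15, beside 18.8%, and for the untested H2bc14. FGF-ESC arrays lay below all others for H2bc18, 1 of 15, beside 8.78%, and for the untested H2ac12. No test was made of these counts.

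**Figure D3:**
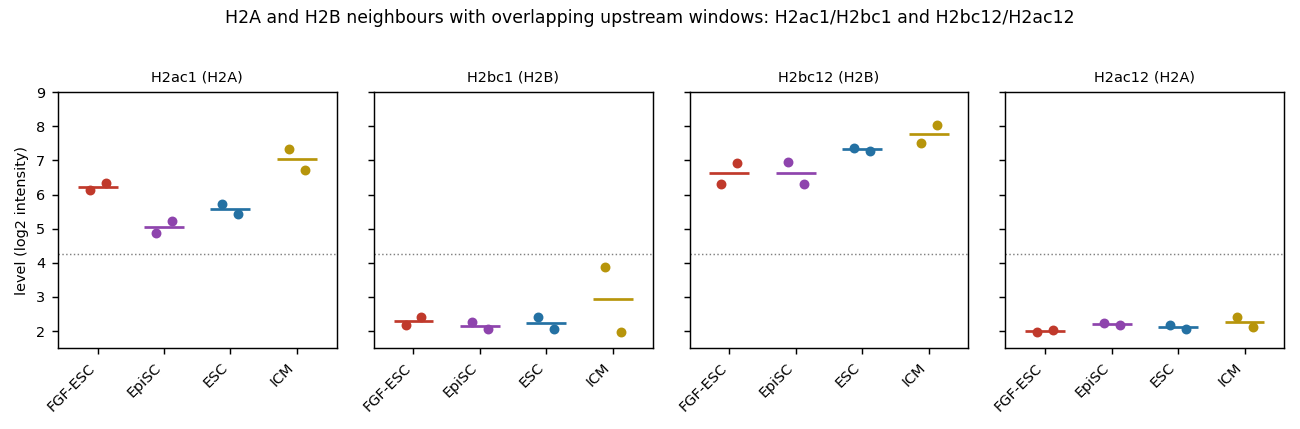
Log2 levels of the divergent H2A and H2B pairs, by group, with points for arrays, short lines for means and a dotted line at the overall median. In each pair the levels of 1 gene vary by group while all arrays of its partner lie at or below 3.87.

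The promoter windows of 2 pairs of members overlap. H2ac1 and H2bc1, the TH2A and TH2B genes, share 220 bases and are read in opposite directions. H2bc1 (probe set 17291258) was at 2.17 and 2.42 in FGF-ESC, 2.27 and 2.05 in EpiSC, 2.42 and 2.07 in ESC and 3.87 and 1.98 in ICM, so 1 ICM array stood apart and no array was above the median of all values. H2ac12 and H2bc12 share 177 bases, and H2ac12 (Hist1h2ah, probe set 17291049) was at 1.96 and 2.02 in FGF-ESC, 2.23 and 2.18 in EpiSC, 2.19 and 2.05 in ESC and 2.42 and 2.11 in ICM. H2ac12 and H2bc1 were not tested, so no shared movement within a pair could be read.

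Probe sets listed with several histone genes are not members and were fitted with every probe set on its own, a fit added after the values were seen. Of 38 such probe sets, 19 distinct ones exceeded the overall median on 2 or more arrays. Probe set 17285746 did so only on its FGF-ESC arrays, and it is among the higher ones in each FGF-ESC comparison below. In FGF-ESC minus ESC 3 of 19 were higher and 0 lower, beside 3.35% higher and 1.25% lower of 23300 probe sets. In FGF-ESC minus EpiSC it was 2 higher and 0 lower, beside 3.99% and 2.24%, and in FGF-ESC minus ICM 3 higher and 1 lower, beside 8.25% and 6.52%. In EpiSC minus ESC it was 2 higher and 0 lower, beside 3.33% and 3.45%. For ESC minus ICM it was 2 and 2, beside 6.51% and 6.23%, and for EpiSC minus ICM 3 and 2, beside 8.08% and 7.13%.

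H2B probe sets made up all of the rises of FGF-ESC among these shared ones. Probe set 17285851, listed with H2bc4, H2bc6 and H2bc8, was at 9.26 and 8.72 in FGF-ESC, 4.68 and 5.49 in EpiSC, 4.45 and 4.65 in ESC and 7.67 and 7.04 in ICM. FGF-ESC was highest, ICM next, and EpiSC and ESC lowest, without overlap between FGF-ESC and any other group. It rose by 4.44 ± 0.33 (adjusted p = 0.00107) relative to ESC, by 3.91 ± 0.33 (adjusted p = 0.000973) relative to EpiSC and by 1.64 ± 0.33 (adjusted p = 0.0109) relative to ICM. A second probe set with the same 3 genes, 17285834, was at 7.10 and 6.90 in FGF-ESC, 6.44 and 6.56 in EpiSC, 5.07 and 4.56 in ESC and 6.16 and 5.10 in ICM. Here FGF-ESC was again highest, with EpiSC close below it. Probe sets that list these 3 genes together with others did not rise in FGF-ESC minus ESC. Among them, 17285691, listed with 12 genes, had -0.57 ± 0.13 (adjusted p = 0.0482) and 17291195, which adds H1f4, had -0.03 ± 0.16 (adjusted p = 0.936). The log2 fold change of 17285834 was 2.18 ± 0.34 (adjusted p = 0.0141) in FGF-ESC minus ESC and 1.68 ± 0.34 (adjusted p = 0.0193) in EpiSC minus ESC. Probe set 17285746, listed with H2bc7, H2bc11, H2bc13 and H2bc15, was at 5.30 and 4.92 in FGF-ESC, 4.07 and 4.09 in EpiSC, 3.20 and 3.38 in ESC and 3.18 and 3.98 in ICM. It exceeded the overall median only in FGF-ESC, so it was tested only through the group where it was high, and its rises add no support. It rose by 1.82 ± 0.26 (adjusted p = 0.0118) in FGF-ESC relative to ESC, while 17290997, listed with the same 4 genes, was at 10.71 and 10.87 in FGF-ESC, 11.32 and 11.24 in EpiSC, 11.31 and 11.33 in ESC and 10.75 and 10.64 in ICM. The change of 17290997 in FGF-ESC minus ESC was -0.53 ± 0.12 (adjusted p = 0.0456), so probe sets with the same genes ran in opposite directions.

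**Figure D4:**
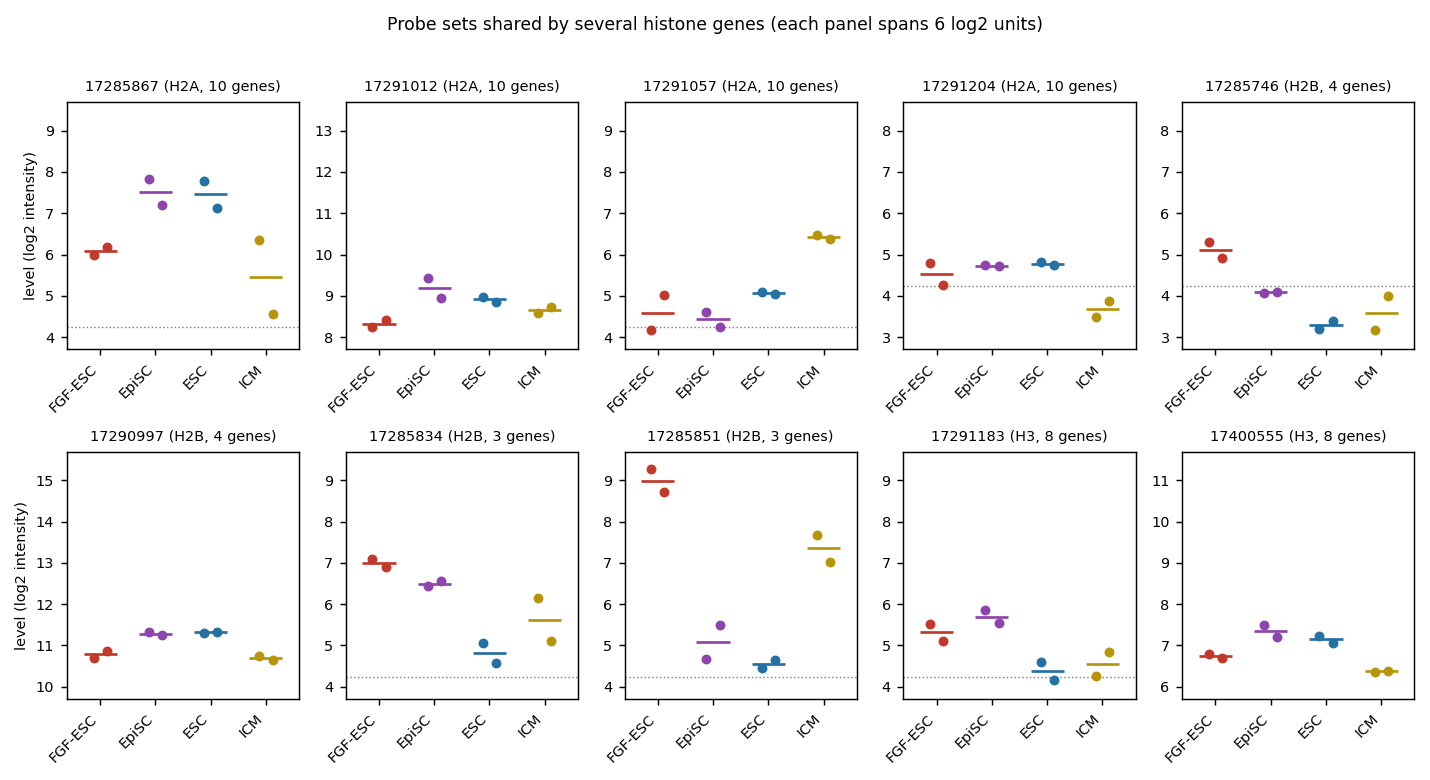
Log2 levels on each array of probe sets listed with several histone genes, by group, with points for arrays, short lines for means and a dotted line at the overall median. Probe set 17285851 (H2bc4, H2bc6 and H2bc8) is at 9.26 and 8.72 in FGF-ESC and at 4.45 and 4.65 in ESC.

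Shared H2A and H3 probe sets differed by other groups. H2A probe set 17291057, listed with 10 genes, was at 4.17 and 5.01 in FGF-ESC, 4.60 and 4.25 in EpiSC, 5.08 and 5.05 in ESC and 6.47 and 6.38 in ICM, above all cultured arrays. Its log2 fold change was -1.83 ± 0.27 (adjusted p = 0.00273) in FGF-ESC minus ICM. Probe set 17285867, listed with the same 10 genes, was at 5.98 and 6.18 in FGF-ESC, 7.83 and 7.20 in EpiSC, 7.79 and 7.12 in ESC and 6.36 and 4.57 in ICM. It ran the other way, higher in ESC than in ICM by 1.99 ± 0.55 (adjusted p = 0.0351). H3 was represented only by shared probe sets, since all 12 RefSeq H3 genes had none of their own. H3 probe set 17291183, listed with 8 genes, was at 5.53 and 5.12 in FGF-ESC, 5.85 and 5.54 in EpiSC, 4.60 and 4.16 in ESC and 4.26 and 4.84 in ICM. The EpiSC arrays were the highest, and it rose in EpiSC relative to ESC by 1.32 ± 0.26 (adjusted p = 0.0184) and relative to ICM by 1.15 ± 0.26 (adjusted p = 0.0154). H3 probe set 17400555, listed with the same 8 genes, was at 6.78 and 6.71 in FGF-ESC, 7.50 and 7.19 in EpiSC, 7.24 and 7.06 in ESC and 6.36 and 6.39 in ICM and passed in 0 comparisons.

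Genes that make histone mRNA, carry histones or act in replication were described beside the members. Of 20 measured factors of histone transcription and 3′ end formation, limma passed 0 in FGF-ESC minus ESC and in FGF-ESC minus EpiSC, with 6 and 9 lower and 0 higher at an unadjusted p below 0.05, where 15.6% and 16.6% of all tested genes were lower. In FGF-ESC minus ICM 1 rose and 1 fell, beside 9.57% and 5.22% of all tested genes. Lsm10, a subunit of the U7 particle that cuts histone mRNA, was at 7.20 and 6.95 in FGF-ESC and 5.85 and 6.14 in ICM, a log2 fold change of 1.08 ± 0.16 (adjusted p = 0.00135). Hinfp, a transcription factor of H4 genes, was at 5.28 and 5.04 in FGF-ESC and 6.64 and 6.32 in ICM, a change of -1.32 ± 0.16 (adjusted p = 0.000361). Of 19 histone chaperones, 0 rose and 1 fell in FGF-ESC minus ESC, beside 5.27% and 0.934% of all tested genes. The one that fell was Asf1b, an H3 and H4 chaperone of dividing cells, at -1.04 ± 0.13 (adjusted p = 0.00193). Among 11 measured replication-independent variants, of which 8 were tested and which include members H1f7, H1f8 and H1f10, limma passed 0 in the comparisons of FGF-ESC. At an unadjusted p below 0.05, 4 variants were lower and 0 higher in FGF-ESC minus ESC, beside 15.6% and 15.5%. In EpiSC minus ICM Macroh2a2 rose by 1.44 ± 0.24 (adjusted p = 0.00171) and Macroh2a1 fell, with -1.02 ± 0.18 (adjusted p = 0.00267). Both encode macroH2A. In ESC minus ICM the DNA damage variant H2ax rose by 1.06 ± 0.16 (adjusted p = 0.00134).

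Of 25 measured S phase and replication genes, limma passed 0 in FGF-ESC minus ESC or FGF-ESC minus EpiSC, with 14 and 13 lower and 0 higher at an unadjusted p below 0.05, where 15.6% and 16.6% of all tested genes were lower. Without the minimum, 10 were lower and 0 higher than in ESC, beside 6.11% lower and 9.24% higher of all genes, and 6 were lower and 0 higher than in EpiSC, beside 9.13% and 10.7%. The helicase subunit Mcm5 was at 7.78 and 8.15 in FGF-ESC, against 8.88 and 8.77 in ESC, which differ by -0.85 ± 0.14 on the log2 scale (adjusted p = 0.0077). The mean level of the 25 genes was 7.73 and 8.003 in FGF-ESC, 8.19 and 8.25 in EpiSC, 8.26 and 8.27 in ESC and 7.92 and 7.88 in ICM. FGF-ESC and ICM arrays thus lay below EpiSC and ESC arrays, as they did for the 9 histone genes. This order was not limited to S phase genes. The mean of 19 histone chaperones was 7.66 and 7.78 in FGF-ESC and 7.61 and 7.64 in ICM. It was 7.89 and 7.92 in EpiSC and 7.87 and 7.85 in ESC. For 11 replication-independent variants it was 5.88 and 6.07 in FGF-ESC and 6.01 and 6.03 in ICM. There EpiSC had 6.18 and 6.13 and ESC 6.25 and 6.26. The 20 histone mRNA factors did not have this order: ICM replicate 2 was at 6.97 and EpiSC replicate 1 at 6.96. Ccne1, a cyclin that starts S phase, rose in FGF-ESC relative to ICM by 1.44 ± 0.12 (adjusted p = 4.97e-05). Whether the histone levels go with the S phase levels was not tested.

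**Figure D5:**
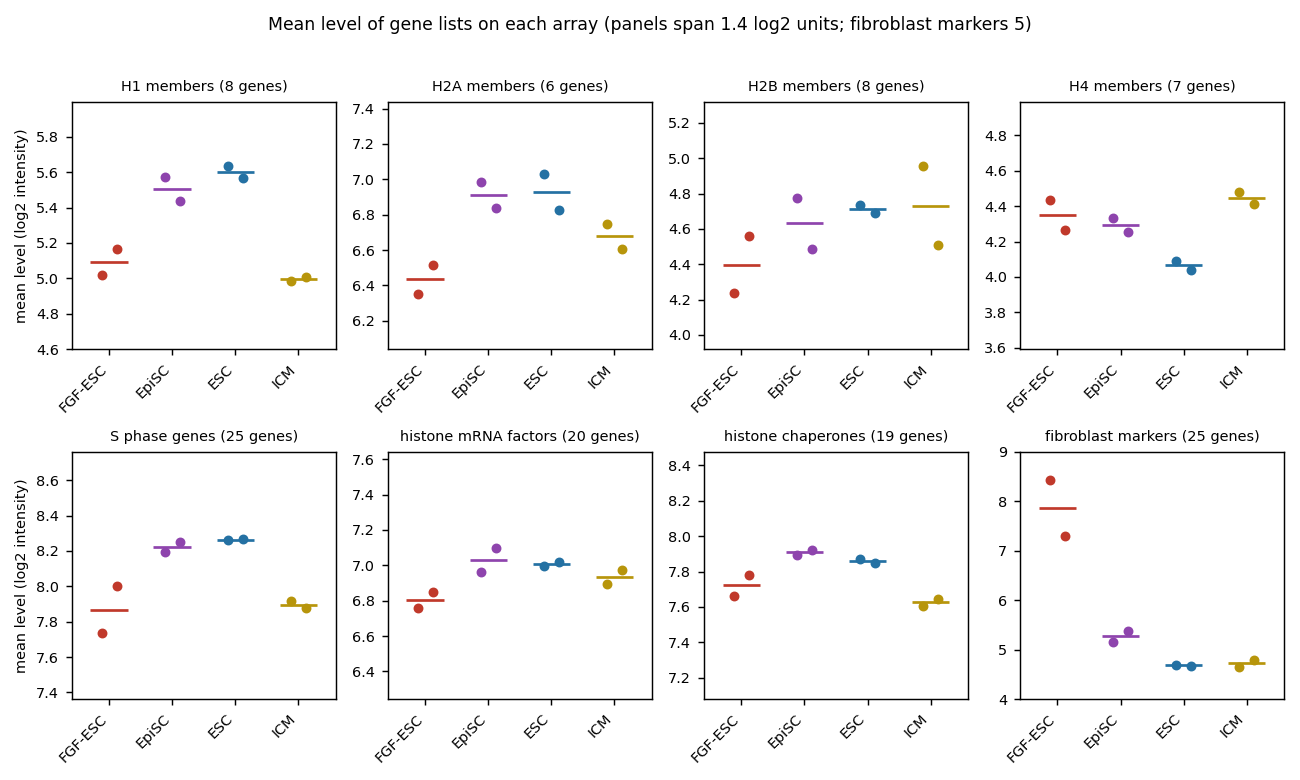
Mean log2 level of each gene list, by group, with points for arrays and short lines for group means. S phase genes are at 7.73 and 8.003 in FGF-ESC and at 8.26 and 8.27 in ESC, while fibroblast markers are at 8.43 and 7.30 in FGF-ESC and at 4.69 and 4.68 in ESC.

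Marker lists of other cell types differed between the groups. Fibroblast markers summed to 14425 and 7916.7 linear intensity units in FGF-ESC, 1571.2 and 1838.3 in EpiSC, 2164.5 and 2132 in ESC and 1424.1 and 1633.8 in ICM. Of the 25 genes, 25 and 23 exceeded the overall median in FGF-ESC, 18 and 20 in EpiSC, 14 and 12 in ESC and 13 and 16 in ICM. In FGF-ESC minus ESC 19 of the 23 tested rose and 0 fell, beside 5.27% and 0.934% of all tested genes. Thy1, a surface protein of fibroblasts, was at 10.16 and 9.45 in FGF-ESC and 5.44 and 5.34 in ESC. Not every marker set FGF-ESC apart. Fn1 was at 10.42 and 9.91 in FGF-ESC and 10.01 and 9.98 in ESC. Pdgfra was at 8.18 and 6.68 in FGF-ESC and 8.06 and 7.82 in ICM. FGF-ESC replicate 1, with the higher fibroblast mean, was the lower of the FGF-ESC arrays for H1f5, at 8.28 against 8.78 in replicate 2. It was also lower for H2ac21, at 6.76 against 7.14, but not for H2ac20, at 6.99 against 6.92. H2ac1, which was higher in FGF-ESC than in EpiSC, was at 6.13 against 6.33. Trophectoderm markers, 10 genes, averaged 4.80 and 4.82 in FGF-ESC, 4.95 and 5.12 in EpiSC, 5.10 and 5.05 in ESC and 5.84 and 5.83 in ICM. Of the 9 tested, 0 rose and 5 fell in FGF-ESC minus ICM, beside 9.57% and 5.22% of all tested genes. Among those that fell was Cdx2, at -1.501 ± 0.24 (adjusted p = 0.00165). Primitive endoderm markers, 10 genes of which Pdgfra is also on the fibroblast list, averaged 5.36 and 4.97 in FGF-ESC, 4.62 and 4.68 in EpiSC, 4.46 and 4.57 in ESC and 5.67 and 5.74 in ICM. They summed to 788 and 404.1 linear units in FGF-ESC, 266 and 284.6 in EpiSC, 266.9 and 286.2 in ESC and 925.7 and 850.02 in ICM. By these means and sums FGF-ESC and ICM arrays were above EpiSC and ESC arrays, the groups that also set the 9 histone genes apart. The single markers did not all share this order. Lama1 was at 4.80 and 5.05 in FGF-ESC and at 6.35 on both ESC arrays. For Gata4, Sox17 and Foxa2 the FGF-ESC arrays lay below the EpiSC arrays. Gata6, a defining transcription factor of primitive endoderm, was at 3.81 and 3.44 in FGF-ESC, 4.34 and 4.51 in EpiSC, 3.73 and 3.68 in ESC and 7.996 and 8.04 in ICM. In FGF-ESC minus ESC 3 of the 9 primitive endoderm markers tested rose and 1 fell, beside 5.27% and 0.934% of all tested genes. The risers were Pdgfra, Dab2 and Col4a1. The part of fibroblast, trophectoderm or primitive endoderm RNA in the histone results was not tested.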

How the data were processed

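The values are log2 intensities, 1 per probe set and array, as the authors deposited them, and the log2 unit was read from their range of 1.63 to 12.2. Per the submitters' processing notes, the tool was Affymetrix Expression Console 1.3.1. How probes were summarised and background corrected is not given in the sources used here. No further normalization was applied. Of 41345 probe sets, 23521 were annotated with 1 gene, 1814 with several and 16010 with none; 23328 symbols matched RefSeq, which updated 0. The brightest single-gene probe set stood for each of 22180 genes. Genes above 4.24, the overall median, on 2 or more arrays (13597) were fitted with limma 3.58.1 in R 4.3.3, as a means model of 4 groups over 8 arrays (lmFit, contrasts.fit, eBayes) with Benjamini-Hochberg adjustment in each of 6 comparisons. The SE rests on a spread shared by the groups. The fit was tried on simulated data in which each gene had the same spread in every group. The residual SD of the arrays was 0.28 in FGF-ESC, 0.15 in EpiSC, 0.12 in ESC and 0.21 in ICM. That trial therefore does not cover unequal spread. Members named are those past the threshold, the 3 brightest and the one with the widest range in each class, known germ cell or replacement forms, and up to 3 genes of each other list by adjusted p. Other genes are given by counts or were named after their values were seen. The members and lists were chosen with earlier results of these data known. Alternatives were no low-value filter, no fold minimum, the mean of probe sets, quantile normalization, the 2 compared groups alone, a replicate block, each array left out, and every probe set on its own. The number of arrays limits the precision.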

Additional observations from a re-analysis of the deposited data

How the results depend on the processing

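The counts of histone genes past the threshold were 2 in FGF-ESC minus ESC, 4 in FGF-ESC minus EpiSC, 2 in FGF-ESC minus ICM, 0 in EpiSC minus ESC, 5 in ESC minus ICM and 5 in EpiSC minus ICM. Without the fold minimum they were 6, 8, 5, 2, 10 and 12 in the same order of comparisons. Without the low-value filter 3 passed in FGF-ESC minus ESC, 1 higher and 2 lower. In FGF-ESC minus EpiSC it was then 5, with 2 higher and 3 lower. The 0 higher in FGF-ESC minus ESC thus depends on the filter. Leaving out each array in turn gave 0 to 5 in FGF-ESC minus ESC, 1 to 6 in FGF-ESC minus EpiSC, 1 to 2 in FGF-ESC minus ICM, 0 in EpiSC minus ESC, 4 to 6 in ESC minus ICM and 3 to 6 in EpiSC minus ICM. The 0 in FGF-ESC minus ESC came without ESC replicate 1, the 1 in FGF-ESC minus EpiSC without EpiSC replicate 1 and the 3 in EpiSC minus ICM without EpiSC replicate 1. A group left with 1 array is assumed to vary like the others, and the cause of each change was not tested. The shares of all genes that passed without the filter or with an array left out are not given here. These counts therefore cannot be read as particular to the histone genes. With the replicate number as a block the counts were 2, 4, 2, 0, 5 and 5, so the pairing moved none of them. The labels do not say that a number pairs samples, and deviations of same-numbered arrays correlated between -0.09 and 0.04. Of 18 differences that passed, 7 did so under each of the 14 alternatives followed gene by gene, and 0 changed direction there; testing every probe set on its own was followed by counts only, which did not change. Intensity over background limits the 14 untested genes.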
